A study of Mus musculus with 16 samples.

Results

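The natriuretic peptide system was followed in HL-1 cells, an immortalised line of contracting mouse atrial cardiomyocytes, through 7 genes: the peptide precursors Nppa, Nppb and Nppc, the receptors Npr1, Npr2 and Npr3, and the processing enzyme Corin. The genes were chosen as a named family and matched to the array by RefSeq accession, with 1 probe for each gene, the one with the highest mean signal. All 7 had a probe among the 41174 on the array, and 5 of them were among the 17771 genes bright enough to test. The cells, labelled female, were exposed for 6 h to 100 nM dexamethasone (Dex, a synthetic glucocorticoid), 10 nM estradiol (E2, an estrogen), both (Dex+E2), or vehicle (PBS), with 4 single-colour arrays for each label. HL-1 cells descend from an atrial tumour of a mouse in which the Nppa promoter drives a viral large T antigen, and a single line stands behind every array. The series design gives 4 independent experiments, but no label ties an array number to an experiment, so p-values measure the spread between these arrays. By its title, the series is about antagonism between glucocorticoids and estrogen in heart muscle cells.

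Nppa encodes atrial natriuretic peptide and Nppb encodes B-type natriuretic peptide, hormones that heart muscle releases when it is stretched and that lower blood volume and pressure. Both bind the receptor encoded by Npr1, a membrane guanylyl cyclase that makes cyclic GMP, whereas C-type natriuretic peptide, from Nppc, acts through the related cyclase encoded by Npr2. Npr3 encodes the clearance receptor, which takes the peptides up without a cyclase domain, and Corin encodes the membrane protease that cuts the Nppa precursor into active hormone. Nppa is a hallmark of atrial muscle, and glucocorticoids are known to act on its transcription in cardiac cells.

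Nppa and Nppb are neighbours on chromosome 4, and their proximal promoters are shown because they hold motifs of cardiac factors whose genes are followed further on. The 250 bases before the annotated start, on the plus strand of GRCm38.p6 as given by RefSeq, lie at chr4:148000472-148000721 for Nppa and at chr4:147985650-147985899 for Nppb. Capitals mark matches, on either strand, to short motifs of GATA-binding zinc finger factors, NK homeobox factors, T-box factors, TEAD factors (the M-CAT motif) and the glucocorticoid receptor; positions count from the start, with -1 the base before it.
Nppa: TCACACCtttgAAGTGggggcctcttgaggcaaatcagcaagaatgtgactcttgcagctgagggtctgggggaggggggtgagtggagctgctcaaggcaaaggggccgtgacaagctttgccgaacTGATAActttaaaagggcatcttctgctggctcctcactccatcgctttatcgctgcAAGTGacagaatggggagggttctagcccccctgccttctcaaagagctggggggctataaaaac
Nppb: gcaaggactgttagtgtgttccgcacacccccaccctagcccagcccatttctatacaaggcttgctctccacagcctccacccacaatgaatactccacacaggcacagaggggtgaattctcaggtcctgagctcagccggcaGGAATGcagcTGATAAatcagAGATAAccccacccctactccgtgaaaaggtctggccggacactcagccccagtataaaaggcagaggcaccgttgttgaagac
The zinc finger factor motif TGATAA began at -122 in Nppa and at -95 in Nppb, and 7.94% of the 32851 mouse promoter windows of this length held it. Its variant AGATAA began at -84 in Nppb (9.99% of windows). The homeobox motif AAGTG began at -239 and -65 in Nppa (40.7% of windows), and the T-box motif GGTGTGA was read on the minus strand at -250 in Nppa (3.33% of windows). The M-CAT motif CATTCC was read on the minus strand at -105 in Nppb (12.6% of windows). Neither window held the half-site of the glucocorticoid response element, AGAACA, which 16.1% of windows held, or the full palindromic element (0.00913% of windows). None of these matches overlapped another, and a match of letters is not a bound site.

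Levels are log2 intensities relative to the 75th percentile of each array, so 0 is the brightness of that percentile. Levels of different probes were not set against each other, apart from sums of marker genes, which add levels over probes. Nppa was well above background on 16 of 16 arrays, with levels between 0.35 and 1.10 and intensities between 512 and 1095. Nppb was measured on 16 of 16 arrays at intensities of 50.1 to 106 and levels of -3.20 to -2.04. Nppc was well above background on 5 of 16 arrays (Dex 1, E2 4, Dex+E2 3 and Vehicle 3 and 4), with levels from -7.67 to -5.70, and was not tested. The transcripts of both heart hormones were therefore measured in this line on every array, and that of the C-type peptide on a minority of them.

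Among the receptors, Npr2 lay between -0.85 and 0.25 and Npr3 between 2.15 and 2.50, both well above background on 16 of 16 arrays. Npr1, at intensities of 1.33 to 4.37, was not well above background on the 16 arrays and has only a bound here. Corin was measured on 16 of 16 arrays between 1.28 and 2.08. The receptor transcripts above background were thus those of the C-type peptide receptor and the clearance receptor, and that of the receptor for the products of Nppa and Nppb was not detectable with its 1 probe.

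The label of an atrial cardiomyocyte line was set against marker genes. Of 12 atrial or pan-cardiac markers, 11 were well above background on all 16 arrays, among them the atrial light chain gene Myl7 at 7.62 to 8.09, and Bmp10 was on 0. All 5 ventricular markers were well above background on 16 arrays, among them the light chain genes Myl2 at -3.65 to -2.84 and Myl3 at 3.61 to 4.38, and Myh7 at 0.40 to 2.50. All 4 smooth muscle markers were measured on 16 arrays, with Acta2 at 7.93 to 8.25 and Tagln at 7.02 to 7.46. Of 7 fibroblast markers, 5 were, with Col1a1 at 4.60 to 5.44, Col1a2 at -4.25 to -3.30 and Dcn at -5.52 to -4.42, and Lum was above background on 0. Of 6 endothelial markers, Kdr and Vwf were measured on 16 arrays, and Pecam1 and Cdh5 on 0. RNA came from whole cultures, so fewer cells of a type and less RNA per cell cannot be told apart in any result below.

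Per1, a clock gene that glucocorticoids are known to induce within hours, was used to set the arrays against their labels. Its levels fell into 8 high arrays, between 1.75 and 1.99, and 8 low arrays, between -1.29 and -0.75. On 12 arrays the level matched the presence or absence of Dex in the label. The arrays labelled Vehicle 4 and E2 4 were high without Dex, and those labelled Dex 3 and Dex+E2 3 were low with Dex. Comparisons between labels are therefore given over all 16 arrays and again without these 4. Vehicle 1 correlated least with the other arrays (median r = 0.980 over genes, against 0.982 to 0.994 for the others). The arrays lay on 4 slides, each scanned on its own and each holding a pair of labels: Dex 1 and 2 with Vehicle 1 and 2, E2 1 and 2 with Vehicle 3 and 4, Dex+E2 1 and 2 with Dex 3 and 4, and Dex+E2 3 and 4 with E2 3 and 4. Within a slide, position on the slide and label cannot be told apart.

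With all 16 arrays, the levels of the heart hormones overlapped between the labels. Nppa had levels of 0.44, 0.37, 1.10 and 0.56 on Dex arrays 1 to 4, and 0.55, 0.77, 1.01 and 0.59 on E2 arrays. It had 0.35, 0.44, 0.97 and 0.56 on Dex+E2 arrays, and 0.86, 0.90, 0.82 and 0.70 on vehicle arrays. The Nppa transcript was lowest on Dex and Dex+E2 arrays 1 and 2 and highest on Dex 3, and the labels with Dex spanned the whole vehicle range. Means were 0.58 ± 0.27 for Dex+E2, 0.62 ± 0.33 for Dex, 0.73 ± 0.21 for E2 and 0.82 ± 0.09 for vehicle (SD, n = 4 each).

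Nppb had levels of -2.85, -3.05, -2.57 and -3.17 on Dex arrays 1 to 4, and -2.76, -2.63, -2.50 and -3.06 on E2 arrays. It had -2.93, -2.85, -2.62 and -3.20 on Dex+E2 arrays, and -2.28, -2.04, -2.72 and -3.13 on vehicle arrays. Vehicle 1 and 2 were the brightest and Vehicle 4 was among the dimmest, so the vehicle arrays spread more widely than any other label. Means were -2.91 ± 0.26 for Dex, -2.90 ± 0.24 for Dex+E2, -2.73 ± 0.24 for E2 and -2.54 ± 0.48 for vehicle (SD, n = 4 each).

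**Figure D1:**
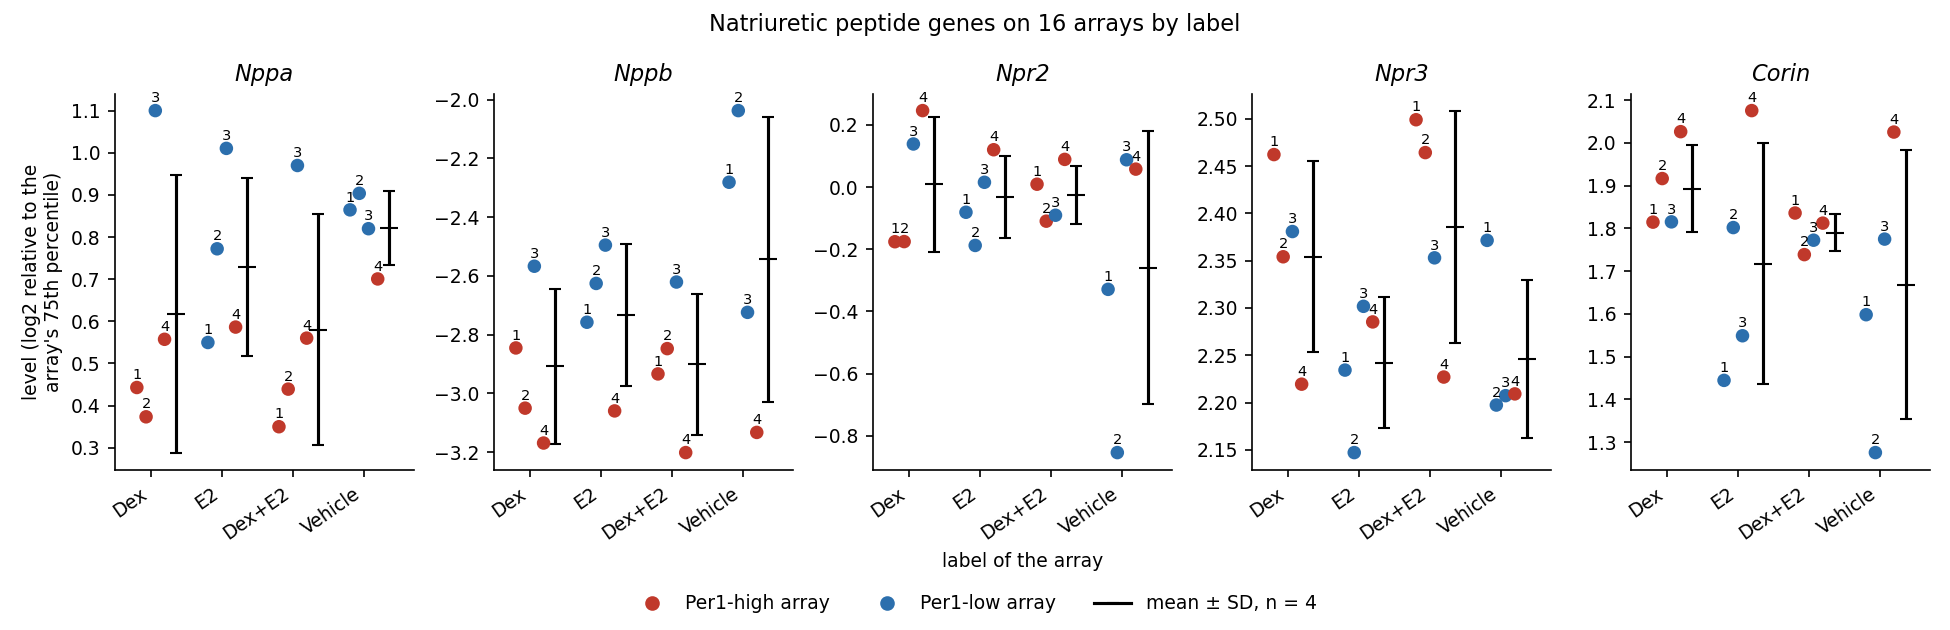
Level of 5 genes (y axis, log2 relative to the array's 75th percentile) on each array, by label (x axis, with the array number beside each point and the mean ± SD of 4 arrays as bars); red points are Per1-high and blue points Per1-low arrays. Labels overlap for each gene, and for Nppb the 8 red points lie below the 8 blue ones, at -3.20 to -2.85 against -2.76 to -2.04.

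Npr2 had levels of -0.18, -0.18, 0.14 and 0.25 on Dex arrays 1 to 4, -0.08, -0.19, 0.02 and 0.12 on E2 arrays, and 0.01, -0.11, -0.09 and 0.09 on Dex+E2 arrays, against -0.33, -0.85, 0.09 and 0.06 on vehicle arrays. A single array, Vehicle 2, held the lowest Npr2 level. Npr3 varied least, with a range of 0.35 over the 16 arrays; its means were 2.39 ± 0.12 for Dex+E2, 2.35 ± 0.10 for Dex, 2.24 ± 0.07 for E2 and 2.25 ± 0.08 for vehicle (SD, n = 4 each). Corin averaged 1.89 ± 0.10 on Dex, 1.79 ± 0.04 on Dex+E2, 1.72 ± 0.28 on E2 and 1.67 ± 0.32 on vehicle arrays (SD, n = 4 each), and its lowest level was again on Vehicle 2.

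In the Dex comparison over all 16 arrays, 0 of the 5 tested members passed limma's moderated test at a Benjamini-Hochberg adjusted p of 0.05, against a background of 0% of 17771 genes called, and 0 of 5 had an unadjusted p under 0.05, as had 1933 of all genes. Nppa differed by -0.20 between Dex and vehicle on the log2 scale (95% interval -0.54 to 0.14, limma adjusted p = 0.638). Nppb differed by -0.36 (-0.82 to 0.09, limma adjusted p = 0.542). Npr2, Npr3 and Corin had differences of 0.27 (-0.09 to 0.63), 0.11 (-0.05 to 0.26) and 0.22 (-0.08 to 0.53). Each interval included 0, and the interval for Nppb still allowed a fall by 0.82. Single arrays moved these values by over 1.5 times: without Vehicle 2 the differences were 0.07 for Npr2, 0.09 for Corin and -0.20 for Nppb, and without Vehicle 4 they were 0.34 for Corin and -0.56 for Nppb. Nppa differed by -0.12 without Dex 2 and by -0.36 without Dex 3, and Npr3 by 0.07 without Dex 1.

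In the E2 comparison, 0 of 5 members passed, against 0% of 17771 genes called, and 682 genes but no member had an unadjusted limma p under 0.05. Nppa differed by -0.09 between E2 and vehicle (95% interval -0.43 to 0.25), Nppb by -0.19 (-0.65 to 0.27) and Npr2 by 0.23 (-0.13 to 0.59), with limma adjusted p-values from 0.979 to 1.00 over the 5 members. With Dex+E2 against vehicle, which shares the vehicle arrays with the other comparisons, 0 of 5 members passed (background 0%, 989 genes and 0 members at an unadjusted limma p under 0.05). Nppa differed by -0.24 (-0.58 to 0.10), Nppb by -0.36 (-0.82 to 0.10) and Npr3 by 0.14 (-0.02 to 0.30). All 3 intervals reached past 0.

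No member passed the test when one hormone was added to the other. Between Dex+E2 and Dex, 0 of 5 members passed in limma (background 0%, 567 genes and 0 members at an unadjusted p under 0.05), and Nppa and Nppb differed by -0.04 (95% interval -0.38 to 0.30) and 0.01 (-0.45 to 0.47). Between Dex+E2 and E2, 0 of 5 passed (background 0%, 714 genes and 0 members unadjusted), with -0.15 for Nppa (-0.49 to 0.19) and -0.17 for Nppb (-0.62 to 0.29). The interaction, the response to Dex in the presence of E2 minus that without, was called for 0 of 5 members (background 0%, 661 genes and 0 members unadjusted), at 0.05 for Nppa (-0.43 to 0.53) and 0.20 for Nppb (-0.45 to 0.85). The intervals of the interaction reached past the size of the Dex difference in both directions.

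Without the 4 arrays whose Per1 level went against the label, 3 arrays for each label remained. Array number 4 was then kept only in labels with Dex, and number 3 only in labels without Dex. The differences in Nppa and Nppb between Dex and vehicle were larger, but still did not pass the adjusted threshold. For both genes the Dex array left out was the highest of its label and the vehicle array left out the lowest, so the larger size follows from the choice. The arrays were left out on a measured value, to which these p-values are open. Of all genes, 2.43% were called between Dex and vehicle (432 of 17771), and 0 of 5 members. An unadjusted limma p under 0.05 was found for 3 of 5 members and for 3512 of the 17771 genes. Nppb differed by -0.67 (SE 0.18, 95% interval -1.06 to -0.28, limma adjusted p = 0.0784) and Nppa by -0.40 (SE 0.11, -0.65 to -0.16, adjusted p = 0.0875). Both hormone transcripts were lower on each of the 3 Dex arrays than on each of the 3 vehicle arrays kept. For these genes this restates the Per1 split described below, since all Dex arrays kept were Per1-high and all vehicle arrays kept Per1-low. Corin differed by 0.37 (0.09 to 0.65, limma adjusted p = 0.151), with all 3 Dex arrays above all 3 vehicle arrays. How many of all genes had their 3 and 3 arrays apart, like Nppa, Nppb and Corin, was not counted. Npr2 and Npr3 differed by 0.33 (-0.11 to 0.76) and 0.09 (-0.12 to 0.30).

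Dex+E2 against the same vehicle arrays gave -0.65 for Nppb (95% interval -1.04 to -0.26, limma adjusted p = 0.0948) and -0.41 for Nppa (-0.66 to -0.17, adjusted p = 0.0851), where 2.59% of all genes and 0 of 5 members were called. Against E2, Dex+E2 gave -0.33 for Nppa (-0.57 to -0.09, limma adjusted p = 0.242) and -0.37 for Nppb (-0.76 to 0.02, adjusted p = 0.529), where 1.93% of genes and 0 of 5 members were called. The interaction, E2 against vehicle, and Dex+E2 against Dex had 0 genes called (0%) by limma and 0 of 5 members, also at an unadjusted p under 0.05 for the members. Between E2 and vehicle Nppb differed by -0.28 (-0.67 to 0.11) and Nppa by -0.09 (-0.33 to 0.16). Between Dex+E2 and Dex, Nppb differed by 0.03 (-0.36 to 0.42) and Nppa by -0.01 (-0.25 to 0.23). The 95% interval for Nppa did not reach past 0.25 in either direction.

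**Figure D2:**
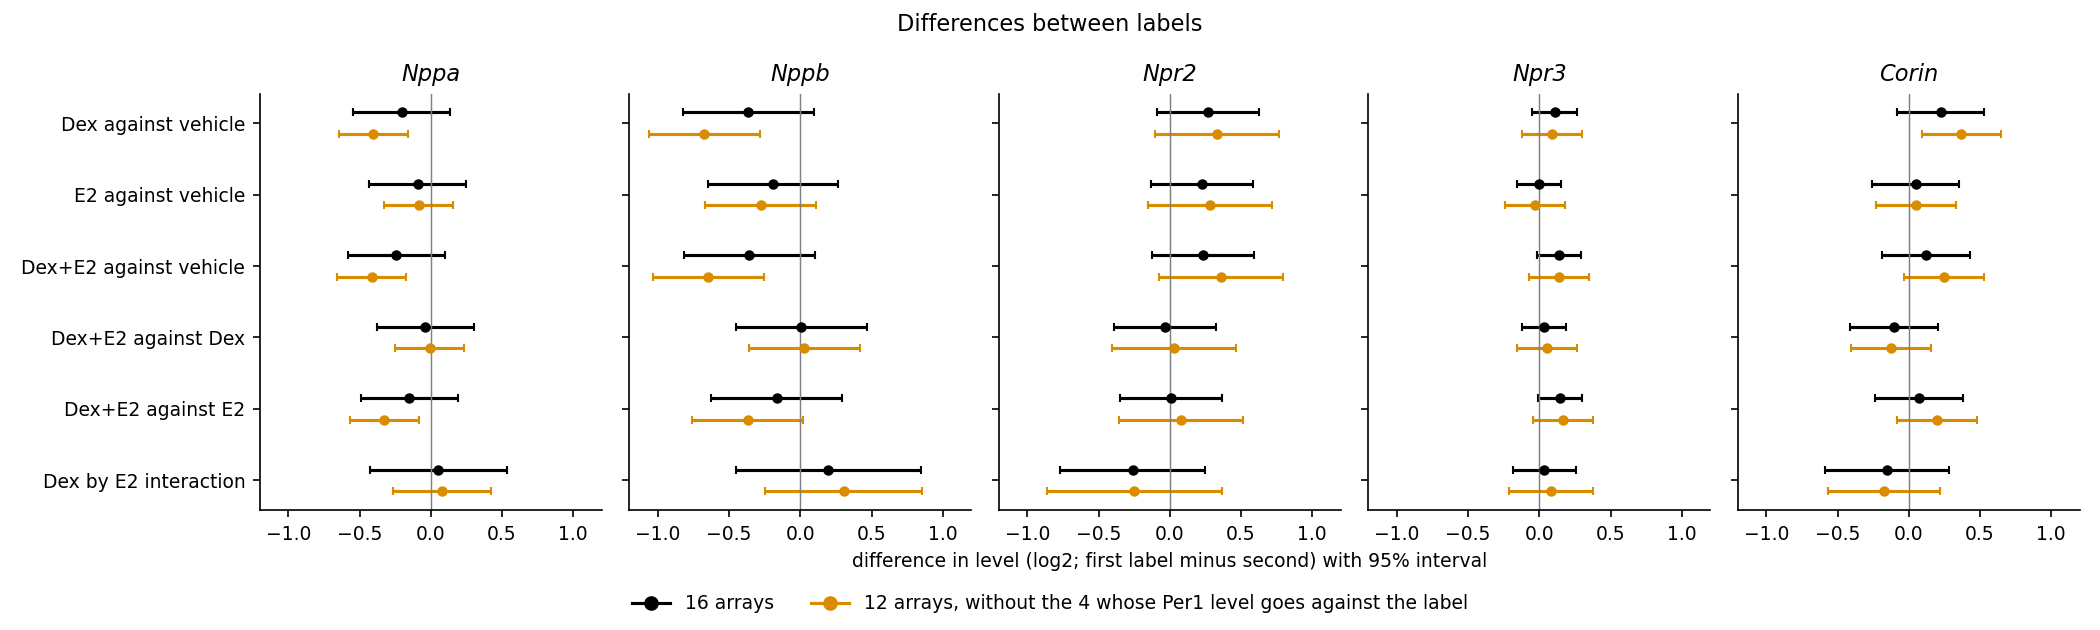
Difference in level between labels (x axis, log2, first label minus second) with its 95% interval for 5 genes, over 16 arrays in black and over 12 arrays in orange. Nppa and Nppb lie left of 0 in the comparisons of Dex or Dex+E2 with vehicle, at -0.20 and -0.36 for Dex over 16 arrays and at -0.40 and -0.67 over 12.

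The slides gave a second view of the labels. Slide 1 held Dex 1 and 2 with Vehicle 1 and 2, whose Per1 levels matched their labels. There Nppa differed by -0.48 between Dex and vehicle (95% interval -0.69 to -0.26) and Nppb by -0.79 (-1.20 to -0.38), with limma adjusted p-values of 0.132 and 0.176. On that slide 0.253% of genes were called and 0 of 5 members. With slide as a block over all 16 arrays, Nppb differed by -0.56 (limma adjusted p = 0.494) and Nppa by -0.28 (adjusted p = 0.545), and 0 members were called. E2 against vehicle turned direction for Nppb, which differed by 0.24 within slide 2, where the arrays were E2 1 and 2 and Vehicle 3 and 4. Vehicle 4, at -3.13, is among the arrays whose Per1 level goes against the label, and Vehicle 3, at -2.72, lay between E2 1 and E2 2.

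The 8 Per1-high and 8 Per1-low arrays cut across the labels, and because a measured value defines them their levels are a description with no test. Nppb was lower on every Per1-high array than on any Per1-low array at this scaling. Its levels ran from -3.20 to -2.85 with a median of -3.05 on Per1-high arrays, against -2.76 to -2.04 with a median of -2.59 on Per1-low arrays, a difference of -0.46 or 1.38-fold lower. Nppa ran from 0.35 to 0.70 with a median of 0.50 on Per1-high arrays, against 0.55 to 1.10 with a median of 0.88 on Per1-low arrays, a difference of -0.38 or 1.31-fold lower. The Nppa ranges overlapped through 1 Per1-low array, E2 1, at 0.55. Without E2 1 both hormone genes separated. E2 1 is singled out because it made Nppa overlap, and the share of all genes separating without it is not given here.

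One of the 5 members, Nppb, thus had no overlap, where 4.06% of the 17529 genes with a value on every array did not overlap in either direction, 2.05% of them lower on Per1-high arrays. The median over all genes was -0.01. A difference of at least the size of that of Nppb was found for 5.77% of genes, and of that of Nppa for 8.32%. Nppb was dim, and its 8 and 8 arrays overlapped with normexp background correction, where the difference fell to -0.19, as well as with quantile normalization (-0.53) and in the authors' deposited log2 values (-0.52). Other probes of the same genes moved alike. The second Nppb probe differed by -0.47 and the second Nppa probe by -0.43, and neither overlapped. The Nppa probe shown was spotted 10 times on each array, with a coefficient of variation between spots of 2.18% to 5.03%.

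**Figure D3:**
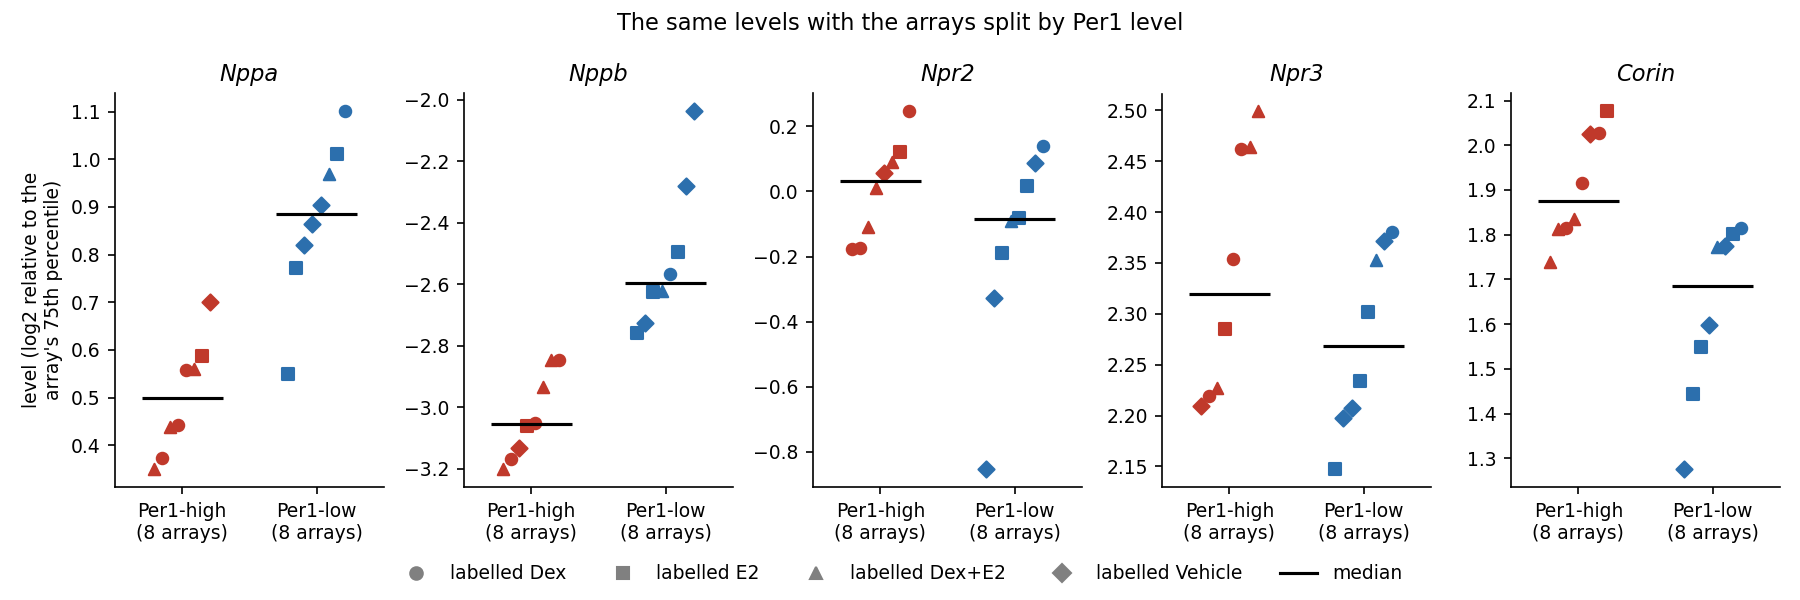
The same levels (y axis, log2 relative to the array's 75th percentile) with arrays split into 8 Per1-high and 8 Per1-low (x axis); the shape of a point gives the label and the bar the median. Nppb does not overlap and Nppa overlaps through E2 1 at 0.55, and the ranges of Npr2, Npr3 and Corin overlap as well, those of Corin between 1.74 and 1.82.

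The receptors and Corin stood less far apart on this split. Corin ran from 1.74 to 2.08 on Per1-high arrays and from 1.28 to 1.82 on Per1-low arrays, with medians of 1.88 and 1.69. Npr2 had medians of 0.03 on Per1-high and -0.09 on Per1-low arrays, and Npr3 had 2.32 and 2.27. Differences as large were found for 24.7% of genes in the case of Corin, 41.0% for Npr2 and 69.7% for Npr3. The other probes of Npr2 differed by 0.09 and -0.003, and those of Npr3 by 0.007 and 0.0003.

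Within each of the 4 slides, both hormone genes were lower on the Per1-high arrays. These signs follow from the split itself, since Nppb did not overlap and Nppa overlapped only through E2 1. Genes with the same sign on all 4 slides were not counted. Nppb differed by -0.79, -0.41, -0.37 and -0.57 on slides 1 to 4, and Nppa by -0.48, -0.07, -0.66 and -0.42. Corin was higher on each slide, by 0.43, 0.25, 0.02 and 0.28, whereas Npr2 and Npr3 changed sign between slides.

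The arrays numbered 4 were all Per1-high and those numbered 3 all Per1-low, so each label holds a pair of arrays on either side of the split. In each pair 1 array is among the 4 whose Per1 level goes against its label. Whether arrays 3 and 4 were exchanged between labels with and without Dex was not tested, and a difference within a label cannot be told apart from one between treatments. Array 4 minus array 3 for Nppb was -0.60 in Dex, -0.56 in E2, -0.58 in Dex+E2 and -0.41 in vehicle. For Nppa the same difference was -0.54, -0.42, -0.41 and -0.12 in that order of labels, and for Corin 0.21, 0.53, 0.04 and 0.25. Nppa and Nppb were lower on array 4 than on array 3 of each label as deposited, and Corin was higher. For Nppa and Nppb this restates the split, since their levels on arrays 3 and 4 did not overlap between the Per1 classes. Pairs of the same sign in each label were not counted over all genes. Arrays 1 and 2 of a label shared a Per1 class, and there Nppb differed by -0.20, 0.13, 0.09 and 0.24 (array 2 minus array 1, same order) and Nppa by -0.07, 0.22, 0.09 and 0.04.

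**Figure D4:**
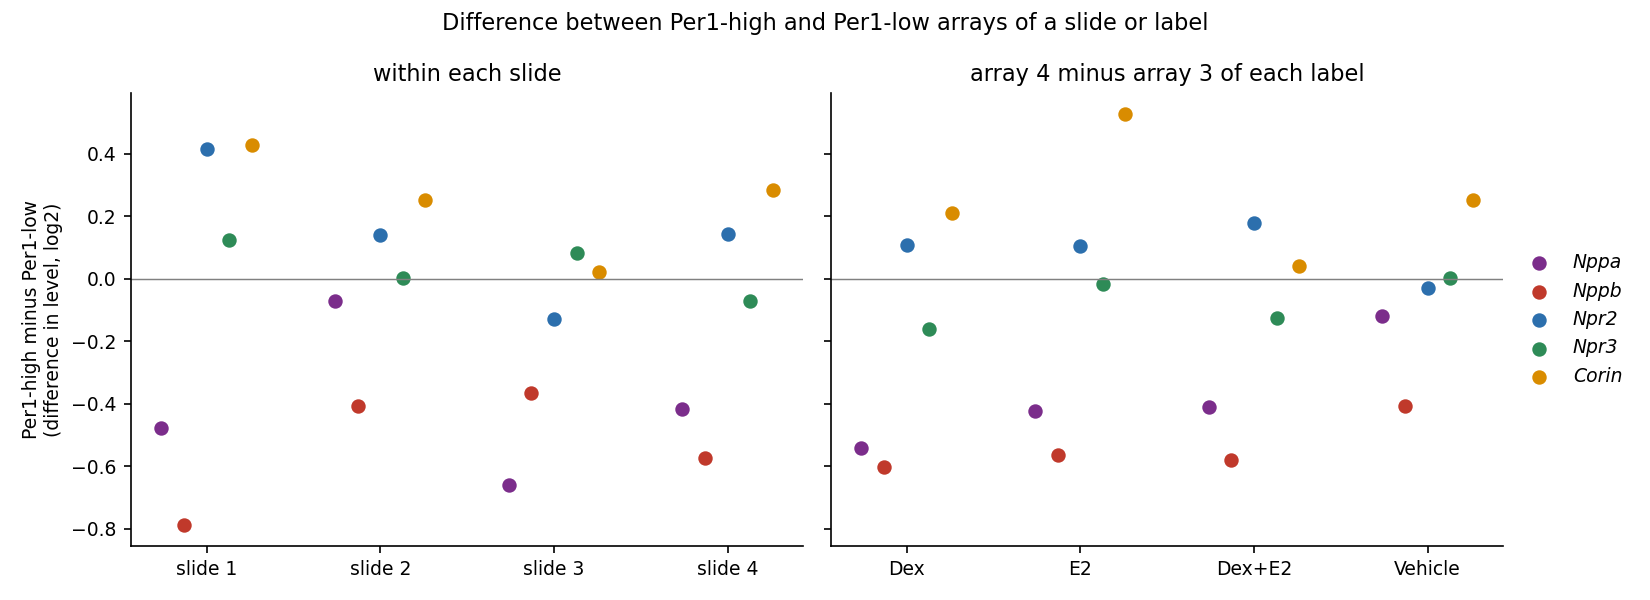
Per1-high minus Per1-low level (y axis, log2) of 5 genes within each slide (left, medians) and between array 4 and array 3 of each label (right, single arrays). Nppa and Nppb lie below 0 in every slide and label, with Nppb between -0.79 and -0.37, and Corin lies above 0. For Nppa and Nppb these signs follow from the split of the arrays.

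Markers of other cell types were read on the same split. Of 6 endothelial genes, 2 were kept, and the summed level of these, Kdr and Vwf, on the linear scale in multiples of the 75th percentile, ran from 1.80 to 2.28 on Per1-high arrays and from 1.12 to 1.63 on Per1-low arrays. Kdr, a receptor of vascular endothelial growth factor, had medians of 1.02 and 0.28 and did not overlap. Vwf, encoding von Willebrand factor, had medians of -4.26 and -3.97 and overlapped, so the sum follows Kdr. The summed levels of 11 atrial markers ran from 577 to 693 on Per1-high and from 592 to 679 on Per1-low arrays. Those of 5 fibroblast markers ran from 29.0 to 47.9 and from 33.5 to 49.8, those of 4 smooth muscle markers from 384 to 466 and from 402 to 467, and those of 5 ventricular markers from 15.7 to 26.0 and from 14.4 to 21.3, Per1-high first. Each sum follows its brightest probes, such as those of Myl7, Col1a1, Acta2 and Myl3, and says little about dim markers. Within these sums single genes stood apart. Without the 4 arrays, left out by their Per1 level, 2.43% of all genes were called between Dex and vehicle. Of 11 atrial markers, 1 was called higher and 1 lower. Among 5 ventricular and 2 endothelial markers, 1 each was called higher, and 0 of 5 fibroblast and 0 of 4 smooth muscle markers were called. Sln (sarcolipin, an atrial calcium pump regulator) rose by 1.22, Myh7 (the slow myosin heavy chain) by 1.39 and Kdr by 0.60, while Gja5 (connexin of atrial muscle) fell by 1.46. Their limma adjusted p-values were 0.0031, 0.0052, 0.0443 and 0.0288, and are open to the choice of arrays by Per1. The part of other cell types in the hormone levels was not tested.

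Among genes linked to the processing or clearance of the peptides, 8 were listed and 6 were measured well enough to test. Mme, which encodes neprilysin, a peptidase that degrades natriuretic peptides, was above background on 0 arrays, as was the convertase gene Pcsk6. With all 16 arrays 0 of 6 passed for Dex against vehicle by limma (background 0%), 5 of 6 had a positive difference, and the median was 0.07, against -0.03 over all genes. Furin, encoding a proprotein convertase that cuts the B-type precursor, differed by 0.05 (95% interval -0.24 to 0.35), and Ide, encoding insulin-degrading enzyme, by 0.04 (-0.12 to 0.20).

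Without the 4 arrays, 1 of 6 was called, where 2.43% of all genes were called for Dex against vehicle. Ece1, encoding endothelin-converting enzyme, was higher by 1.19 on Dex than on vehicle arrays (limma adjusted p = 0.0013). On Dex+E2 arrays it was higher by 1.15 than on vehicle (adjusted p = 0.0015) and by 1.33 than on E2 arrays (adjusted p = 0.0005). The arrays were left out by their Per1 level, to which these p-values are open. On the Per1 split Ece1 had levels from -3.53 to -3.12 on Per1-high arrays and from -4.90 to -4.44 on Per1-low arrays. It was the 1 gene of the 6 without overlap (background 4.06%).

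Of 15 genes of cyclic GMP signalling, through which the cyclase receptors act, 11 were tested. Rgs2 and Prkg2 were above background on 0 arrays. With all 16 arrays, 0 of 11 passed for Dex against vehicle by limma (background 0%), 4 of 11 were positive, and the median was -0.08. Prkg1, which encodes the cyclic GMP-dependent kinase of muscle, differed by -0.41 (95% interval -0.72 to -0.09, limma adjusted p = 0.451), and Pde2a, encoding a phosphodiesterase that cyclic GMP stimulates, by -0.08 (-0.37 to 0.21). The 4 arrays were left out by their Per1 level, to which the p-values without them are open. Without them Prkg1 was the 1 called gene of the 11 (background 2.43% for Dex and 2.59% for Dex+E2). Prkg1 was lower by 0.63 on Dex arrays (limma adjusted p = 0.0244) and by 0.67 on Dex+E2 arrays (adjusted p = 0.0157), each against vehicle. It differed by -0.38 between E2 and vehicle (95% interval -0.66 to -0.10, limma adjusted p = 0.713) and by -0.30 between Dex+E2 and E2 (-0.57 to -0.02, adjusted p = 0.438), and neither was called.

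On the Per1 split, 2 of the 11 did not overlap, both lower on Per1-high arrays (background 2.05% in that direction). Gucy1a1, a subunit of the soluble guanylyl cyclase that nitric oxide activates, had medians of 2.91 on Per1-high and 3.26 on Per1-low arrays. Pde2a had medians of -0.48 and -0.22. Pde9a, encoding a phosphodiesterase specific for cyclic GMP, differed by -0.42 and Prkg1 by -0.33, both with overlap. In all, 7 of the 11 were negative, with a median of -0.16.

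Among 15 transcriptional regulators known to act on Nppa or Nppb, all 15 were tested. With all 16 arrays, 0 of 15 passed for Dex against vehicle by limma (background 0%), 5 were positive, and the median was -0.06. Gata4, encoding a zinc finger factor whose motif is marked in both promoters, differed by -0.19 (95% interval -0.55 to 0.17), and Nkx2-5, encoding the cardiac NK homeobox factor, by -0.02 (-0.23 to 0.19). Without the 4 arrays 1 of 15 was called (background 2.43% for Dex), Gata6, another GATA factor of the heart. Gata6 was higher by 0.70 on Dex arrays (limma adjusted p = 0.0028) and by 0.72 on Dex+E2 arrays (adjusted p = 0.0020), each against vehicle. The arrays were left out by their Per1 level, to which these p-values are open.

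On the Per1 split, Gata6 ran from 3.62 to 3.82 on Per1-high arrays and from 2.89 to 3.26 on Per1-low arrays, the 1 regulator of 15 without overlap (background 4.06%). Gata4 had medians of -1.51 on Per1-high and -1.14 on Per1-low arrays and overlapped. Nkx2-5 had 4.93 and 5.06, also with overlap. Of the 15 regulators 8 were negative and the list's median was -0.01.

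**Figure D5:**
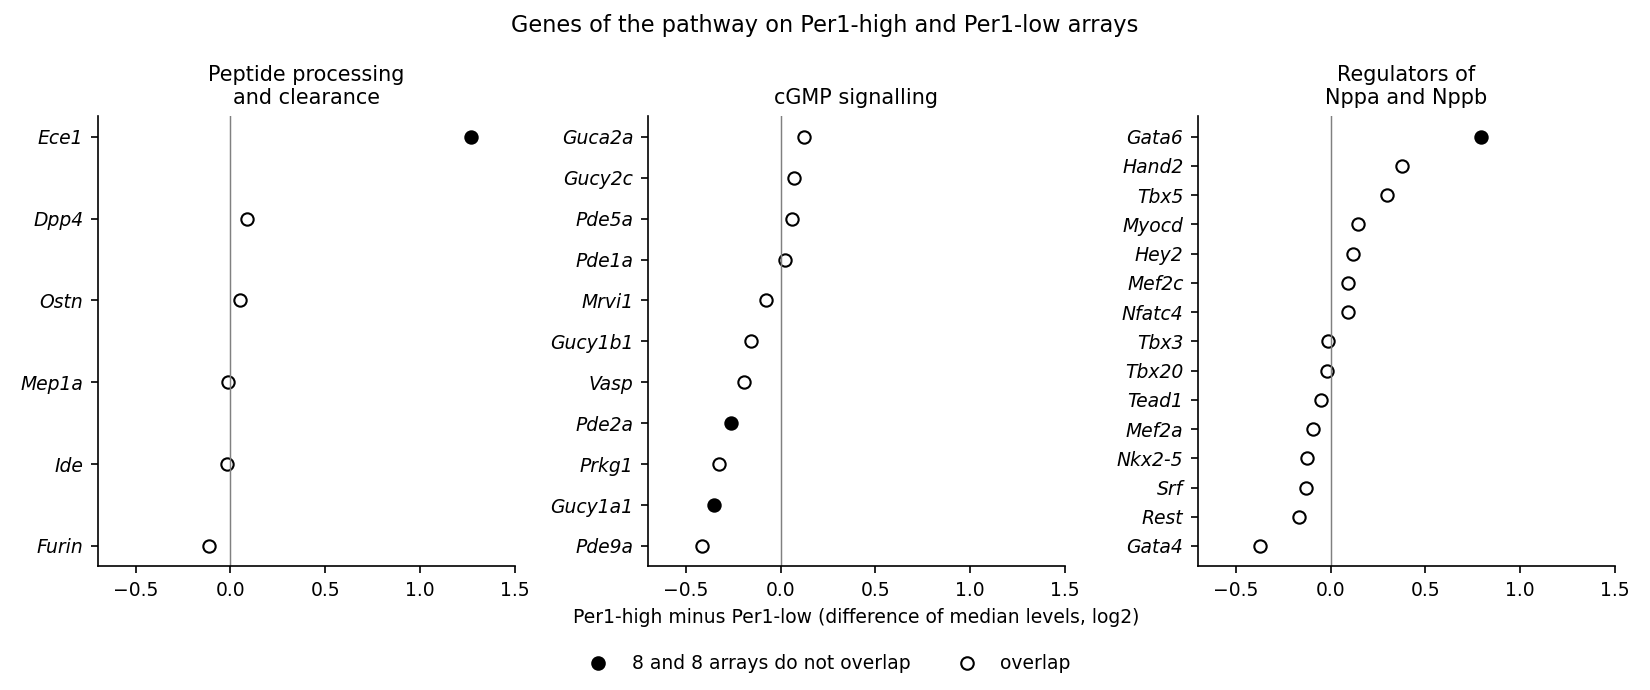
Difference of median levels between Per1-high and Per1-low arrays (x axis, log2) for the tested genes of 3 lists; filled points do not overlap between the 8 and 8 arrays. Ece1 and Gata6 lie on the right, and Gucy1a1 and Pde2a on the left.

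How the members varied together was described over the 12056 named genes well above background on all 16 arrays. These arrays share labels, slides and the Per1 split, and no p-value is given. Nppb was most like Tent5c (Pearson r = 0.979 over 16 arrays), Btg1 (0.974) and Osbpl5 (0.967). Within the 8 Per1-high arrays these were 0.925, 0.837 and 0.943, and within the 8 Per1-low arrays 0.974, 0.957 and 0.958. The likeness was present on both sides of the split, but the genes were picked by r over the same 16 arrays. High values within each 8 follow in part from that choice. Subtracting slide means left r at 0.977, 0.974 and 0.964.

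Nppa was most like Mex3b (r = 0.915), Pcbp4 (0.911) and Lrfn4 (0.903), of which Lrfn4 had r = 0.348 within the Per1-high arrays. The Nppa and Nppb levels had r = 0.671 over 16 arrays, but -0.640 within the Per1-high and 0.329 within the Per1-low arrays. Within the Per1-high arrays both genes separated by array number. On those numbered 4, Nppa ran from 0.56 to 0.70 and Nppb from -3.20 to -3.06. On those numbered 1 and 2, Nppa ran from 0.35 to 0.44 and Nppb from -3.05 to -2.85. Within the Per1-high arrays Npr3 had r = 0.936 with Nppb and -0.835 with Nppa. Whether array number stands for an experiment was not tested. Npr2 was most like Myh11, the smooth muscle myosin gene (0.963), Dctd (0.962) and Dennd4b (0.960). Npr3 was most like Htatsf1 (0.886) and Rprd1b (0.870), and Corin was most like Tbc1d9b (0.922), Fahd1 (0.909) and Galnt11 (0.894). Between members, Nppb ran against Corin (-0.808) and Npr2 (-0.729), and Corin ran with Npr2 (0.717).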

How the data were processed

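Cy3-labelled RNA was hybridised to single-colour Agilent arrays. Per the file headers, spots were quantified with Feature Extraction 12.0.3.1 under an array design of mouse build mm9 (version 12 per the submitters' processing notes), and the deposited signal of a spot is its linear intensity after background subtraction. The authors' table of deposited log2 values, whose 16 columns share a distribution with a median of 4.70 and each correlate best with their own array (r of at least 0.996), served as an alternative. Neither headers nor labels say how that table was normalized.

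Control spots and 88 to 296 spots for each array with outlier flags were left out, spots of a probe were averaged, and the level was log2 intensity minus the array's 75th percentile (402 to 557 intensity units). On an array 58.6% to 65.6% of probes exceeded background well and 0 were saturated. The number of arrays limits the precision. Accessions matched the RefSeq gene table (GRCm38.p6) for 28223 of 41174 probes, naming 19096 genes. Genes well above background on all 4 arrays of a label were kept, with 1 probe each, which left 17771. Differences were fitted with limma 3.58.1 (eBayes with a trend, R 4.3.3) on 16 arrays with label as the only term, two-sided, with Benjamini-Hochberg adjustment over all genes in each comparison, and the procedure was tested on simulated data. All 7 members were named on every array, as were up to 4 called genes of each list, otherwise its first 2 measured, and the 3 genes most like each member, of which 1 is not reported here. Gucy1a1, Pde9a and Vwf, the marker genes given by level and the genes above background on 0 arrays were named after their values were seen. The arrays were divided at the widest gap in Per1. The members, lists and alternatives were chosen with earlier results of these data known. For normexp, the median signal stood in for the mean signal, which the files used here do not hold, and spots with a background outlier flag were given the array's median background.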

Additional observations from a re-analysis of the deposited data

Results flagged for a closer look

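The Npr3 level on Vehicle 1 was 2.37, whereas the other 3 vehicle arrays lay between 2.20 and 2.21, so that the gap to the nearest array took up 0.932 of the group's range. Among the 28 sets of 4 arrays looked at, 1 had an array this far from its neighbours, and chance gives about 1 in 20. Vehicle 1 was also the array that correlated least with the others. Npr3 on Vehicle 1 lay within the range of the Dex arrays.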

How the results depend on the processing

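Across all alternatives tried, 0 members were called in each of the 6 label comparisons. Of the label values, 749 kept their direction and their side of the threshold and 51 turned direction, all of them differences that were not called, and the cause was not tested. Over all genes, 0 were called in each comparison on 16 arrays, but without the 4 arrays 432 were called for Dex against vehicle, 460 for Dex+E2 against vehicle and 343 for Dex+E2 against E2, within slide 1 there were 45, and without a variance trend there was 1 for E2 against vehicle. For E2 against vehicle, the slide block gave 0.0082 for Nppb, -0.095 for Npr2, 0.064 for Npr3 and -0.13 for Corin, slide 2 alone gave 0.24 for Nppb, -0.21 for Npr2 and -0.28 for Corin, and Npr3 was 0.018 with normexp, 0.0099 with quantile normalization and 0.0090 in the deposited log2 values. For Dex+E2 against vehicle, the slide block gave -0.051 for Npr2 and -0.00075 for Corin. For Dex+E2 against Dex, Nppb was -0.050 with quantile normalization, -0.046 in the deposited values and -0.023 within slide 3, and Npr2 was 0.0099 with normexp, 0.20 over the mean of all probes and 0.031 without the 4 arrays. For Dex+E2 against E2 within slide 4, Npr2 was -0.068, Npr3 -0.0035 and Corin -0.020. For the interaction over the mean of all probes, Nppa was -0.0019 and Npr2 0.046. Leaving out 1 array at a time turned the direction within these ranges. In E2 against vehicle Npr3 ran -0.024 to 0.037 and Corin -0.082 to 0.17, and in Dex+E2 against vehicle Corin ran -0.0096 to 0.24. In Dex+E2 against Dex, Nppa ran -0.17 to 0.12, Nppb -0.086 to 0.12, Npr2 -0.10 to 0.045 and Npr3 -0.013 to 0.085. In Dex+E2 against E2, Npr2 ran -0.044 to 0.059 and Corin -0.019 to 0.19, and in the interaction Nppa ran -0.076 to 0.21 and Npr3 -0.0090 to 0.089.

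The count of members without overlap between Per1-high and Per1-low arrays was 1, and it was 0 with normexp, 0 with quantile normalization and 0 in the deposited values. It ran from 1 to 2 when 1 array was left out, with 2 without E2 1 (Nppa and Nppb). The share over all genes with 1 array left out is not given here. Nppb lay at intensities of 50.1 to 106, and normexp was run with an offset of 50. The part of the offset in the overlap was not tested. Nppb also overlapped with quantile normalization and in the deposited values, where its difference was larger in size.

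Array numbers were not taken to pair the samples, since not every same-numbered pair correlated above 0.1. Deviations of same-numbered arrays from their label means correlated at -0.156 to 0.464 for number 1 and -0.0839 to 0.164 for number 2. They correlated at -0.0909 to 0.31 for number 3 and 0.107 to 0.448 for number 4, where all 6 pairs were above 0.1. The label means include the 4 arrays whose Per1 level goes against the label. This check therefore cannot tell whether array numbers mark the independent experiments. With the replicate block, 0 genes and 0 members were called in any comparison, and 2550 genes had an unadjusted limma p under 0.05 for Dex against vehicle, against 1933 without the block, as had 2 of 5 members, against 0 without it.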
